A study of Mus musculus with 10 samples.

Results

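The signal regulatory proteins (SIRPs) and paired myeloid receptors were described here as 10 genes, out of 14374 genes tested and 55359 with a row in the files. They were Gm9733, Sirpb1a, Sirpb1b, Sirpb1c, Sirpa, Cd47, Pirb, Lilrb4a, Pilra and Pilrb1, taken by symbol, and all 10 had enough counts to be tested. The 10 were selected on gene family, with the log2 fold changes and adjusted p-values of Ccr2 knockout against control already known. Their values in that comparison, with the adjusted p of the fit across all genes, are therefore a description and support nothing further. The libraries were RNA-seq of F4/80+ macrophages sorted from Braf-mutant melanomas that had come back under daily Braf/Mek inhibitors. Of 10 libraries, 5 were from Ccr2 knockout mice (Ccr2RFP/RFP) and 5 from control mice (Ccr2RFP/+). All were from male mice given the inhibitors until collection. Both genotypes carry the RFP allele, in which a red fluorescent protein replaces Ccr2 coding sequence, so the control mice have 1 working copy of Ccr2 and are not wild type. No source used here gives the age of the mice or says whether the tumours were grafted or arose in place. Nothing in the labels ties the libraries of a group to separate animals. The p-values therefore reflect only how these samples differed from each other, part of which may be technical.

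Ccr2 is the chemokine receptor that lets Ly6C-high monocytes leave the bone marrow and reach inflamed tissue and tumours. SIRPs are immunoglobulin-type surface proteins of myeloid cells. SIRP alpha, from Sirpa, binds CD47 on neighbouring cells and recruits the tyrosine phosphatases encoded by Ptpn6 and Ptpn11, which holds back phagocytosis and is widely studied as a brake on macrophages in tumours. The SIRP beta proteins lack that inhibitory tail and signal through the adaptor encoded by Tyrobp (DAP12). The other genes follow the same plan of paired receptors, in which related inhibitory and activating receptors sit on the same cells. PIR-B (Pirb) is inhibitory and binds MHC class I, while its activating relatives, the PIR-A proteins, signal through the chain encoded by Fcer1g. PILR alpha (Pilra) is inhibitory and PILR beta (Pilrb1) activating, and Lilrb4a encodes an inhibitory receptor also known as gp49B.

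Gm9733, Sirpb1a, Sirpb1b and Sirpb1c follow each other on the minus strand of chromosome 3 in the GENCODE M21 annotation, followed by the predicted gene Gm5150, with no other protein-coding gene between them. Sirpa lies apart on chromosome 2. The sequence just upstream of the Sirpb1 genes and Gm5150 is shown because these neighbours, which were all lower on average in Ccr2 knockout libraries, share it. Gm9733, also lower, had no RefSeq promoter available and is not shown. Whether the shared sequence bears on the levels was not tested. Promoter sequences were taken from RefSeq on GRCm38.p6, and the stretches below are on the minus strand, written 5′ to 3′, with capitals at the positions where the 4 are not all alike. They lie at chr3:15426521-15426664 for Sirpb1a, chr3:15575066-15575209 for Sirpb1b, chr3:15848529-15848672 for Sirpb1c and chr3:16006438-16006582 for Gm5150.
Sirpb1a: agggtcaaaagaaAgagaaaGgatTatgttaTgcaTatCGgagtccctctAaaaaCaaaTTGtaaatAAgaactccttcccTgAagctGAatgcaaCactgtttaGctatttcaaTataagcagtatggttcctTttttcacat
Sirpb1b: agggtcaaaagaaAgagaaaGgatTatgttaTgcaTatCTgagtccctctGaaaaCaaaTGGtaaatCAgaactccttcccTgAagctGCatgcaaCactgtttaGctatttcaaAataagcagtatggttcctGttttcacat
Sirpb1c: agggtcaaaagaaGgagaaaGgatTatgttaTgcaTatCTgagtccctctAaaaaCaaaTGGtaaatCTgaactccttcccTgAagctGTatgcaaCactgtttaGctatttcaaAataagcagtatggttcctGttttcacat
Gm5150: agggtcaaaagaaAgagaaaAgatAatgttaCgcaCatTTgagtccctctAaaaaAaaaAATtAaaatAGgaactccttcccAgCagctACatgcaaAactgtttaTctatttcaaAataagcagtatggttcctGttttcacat
The stretch ends 93 bases before the annotated gene start in Sirpb1a, 0 bases before it in Sirpb1b, 41 bases before it in Sirpb1c and 105 bases before it in Gm5150. Of 145 aligned positions, 23 were not alike among the 4 genes and 9 were not alike among the 3 Sirpb1 genes. Over the aligned part of the 300-base windows around the gene starts, Sirpb1b and Sirpb1c were alike at 254 of 259 positions, or 98.1%. Sirpb1a matched Sirpb1b at 95.7% of positions and Sirpb1c at 95.6%. The promoters of Pilra and Pilrb1, on chromosome 5, were also near copies, alike at 242 of 246 aligned positions.

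Letters of 4 known motifs were searched on both strands in the 250 bases upstream of the gene start, for the 8 genes with a RefSeq promoter. These were Gm5150 and those of the 10 genes other than Gm9733, Sirpa and Lilrb4a, for which no RefSeq promoter was available. The STAT-type motif TTCNNNGAA was found in Sirpb1a, Sirpb1b and Sirpb1c, and it is present in 7.02% of the 32851 promoters of the table. Since these promoters are near copies, this is 1 observation and not 3. The PU.1 core GAGGAA was found in Pirb and Pilra and in 23.3% of all promoters, and the C/EBP-type motif TTGCNNAA in Pilra and Pilrb1 and in 9.56% of all promoters. The promoters of Pilra and Pilrb1 are near copies too, so the C/EBP-type match is likewise 1 observation. TATAAA was found in none of the 8 windows and in 12.4% of all promoters. A match here is a string of letters and not a bound site.

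Counts in genes ranged from 34639808 to 43360206 per library. In control, library 1 lay much closer to library 2, and library 3 to library 4, than the libraries of any other pair. Their median chi-square per gene was 2.79 and 2.72, against 7.07 to 25.8 for the other pairs within a group, and the labels do not say whether they share a source. Levels are CPM, that is counts scaled to a common library total, with library sizes scaled by edgeR, means are given ± SD over 5 libraries per group, and fold changes are on the log2 scale ± the standard error (SE) of the fit. Ccr2, the deleted gene, averaged 4.72 ± 1.41 CPM in Ccr2 knockout and 119 ± 45.9 CPM in control libraries, a log2 fold change of -4.66 ± 0.33 (edgeR adjusted p = 0.000139). All 9 core macrophage markers were expressed, with overlapping summed levels of 19184 to 28495 CPM in Ccr2 knockout and 21807 to 22396 CPM in control libraries, and 1 of them, Cd68, rose (edgeR adjusted p = 0.0260). Of 10 classical monocyte markers, 5 fell, among them Ly6c2, Plac8, Chil3 and Mcemp1. The log2 fold change was below 0 for 8 of the 10, with a median of -2.69. Ly6c2, a defining marker of Ly6C-high monocytes, averaged 5.43 ± 3.32 CPM in Ccr2 knockout and 85.2 ± 18.3 CPM in control libraries. The sum over all 10 overlapped, at 2664 to 5217 CPM in Ccr2 knockout and 2960 to 7475 CPM in control. That sum is dominated by Fn1 and F13a1, which did not pass the threshold and averaged 2529 and 1451 CPM in Ccr2 knockout and 2281 and 981 CPM in control. Of 10 resident-like macrophage markers, 5 rose. All 10 had a log2 fold change above 0, with a median of 1.05. Their summed levels overlapped, at 3338 to 5821 CPM in Ccr2 knockout and 2090 to 3512 CPM in control. F13a1 is listed here as well as among the classical monocyte markers and contributes to both sums. Neutrophil markers summed to 115 to 213 CPM in Ccr2 knockout and 162 to 550.3 CPM in control libraries, and none of the 8 tested passed the threshold. All 8 had a log2 fold change below 0, with a median of -2.09 and a lowest edgeR adjusted p of 0.0936. Of 9 dendritic cell markers 1 fell, Dpp4, and of 8 tested T and NK cell markers 1 rose, Cd4, with edgeR adjusted p of 0.0297 and 0.0223. The log2 fold change was below 0 for 8 of the 9 dendritic cell markers, with a median of -0.72. It was also below 0 for 7 of the 8 T and NK cell markers, all but Cd4, with a median of -1.18. The summed levels of both lists overlapped, at 18.1 to 50.9 CPM in Ccr2 knockout and 29.2 to 63.1 CPM in control for dendritic cells and 88.3 to 206 CPM in Ccr2 knockout and 71.8 to 168 CPM in control for T and NK cells. The markers that passed the threshold moved with the genotype alongside the SIRP genes, and their part in the results on those genes was not tested. In bulk RNA, fewer cells of a type and less RNA per cell cannot be told apart.

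Among the 10 genes, Gm9733 and Sirpb1a fell in Ccr2 knockout macrophages (edgeR adjusted p under 0.05) and none rose. Of all genes tested, 1.41% passed this threshold, with 0.543% lower and 0.870% higher in Ccr2 knockout. The groups did not overlap for 5 of the 10 genes, each lower in every Ccr2 knockout library, namely Gm9733, Sirpb1a, Sirpb1b, Sirpb1c and Cd47. Non-overlap was seen in 4.70% of all genes tested, with all Ccr2 knockout libraries lower in 2.02% and higher in 2.69%. Nothing is read from these shares, since the genes were chosen with this comparison known. The median log2 fold change was -0.47 over the 10 genes, against 0.00 over all genes. The plot of levels in each library shows the separate groups of Gm9733, Sirpb1a, Sirpb1b and Sirpb1c beside Sirpa, whose groups overlap.

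**Figure D1:**
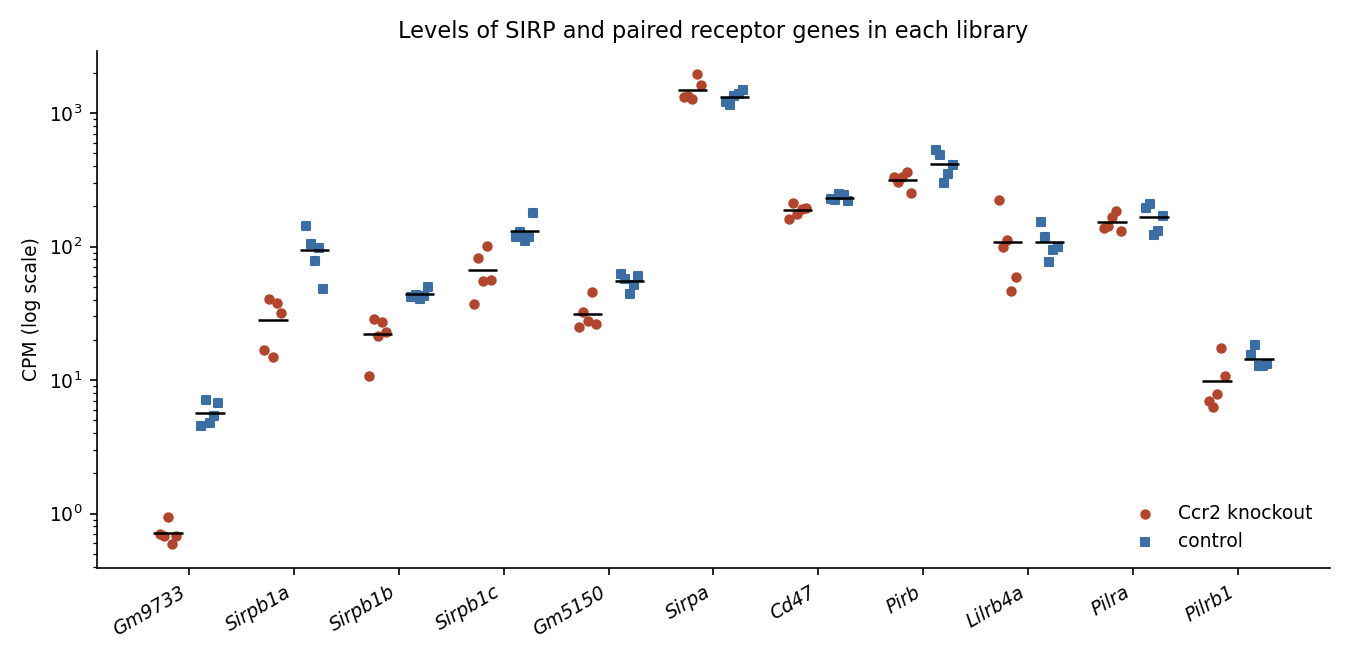
Level of each gene in CPM (log scale) in 5 Ccr2 knockout libraries (circles, left of each pair) and 5 control libraries (squares, right), with the group mean as a line. Gm9733 sits below 1 CPM in all Ccr2 knockout libraries and above 4.5 CPM in all control libraries, while Sirpa runs from 1153 to 1951 CPM.

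Gm9733, a predicted gene of the SIRP family, showed the widest gap. Its level was 0.703, 0.674, 0.938, 0.587 and 0.679 CPM in Ccr2 knockout libraries and 4.54, 7.14, 4.74, 5.40 and 6.70 CPM in control libraries. No knockout library came near any control library, and the knockout mean was 12.5% of the control mean. These levels rest on 24 to 37 reads per Ccr2 knockout library and 166 to 289 reads per control library. The log2 fold change was -2.99 ± 0.22 (edgeR adjusted p = 0.000139), or 7.94-fold lower. Leaving out any 1 library gave log2 fold changes from -3.10 to -2.90 and kept the adjusted p at or below 0.00107. With the close control pairs each summed to 1 sample it was 0.00328.

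Sirpb1a, an activating SIRP that pairs with DAP12, had 16.7, 40.2, 15.0, 37.7 and 31.8 CPM in Ccr2 knockout libraries and 143, 104, 77.3, 97.5 and 47.9 CPM in control libraries. The highest knockout library lay just under the lowest control library, and both groups were widely spread. The means were 28.2 ± 11.8 CPM in Ccr2 knockout and 93.9 ± 35.0 CPM in control. The log2 fold change was -1.73 ± 0.34 (edgeR adjusted p = 0.0372), or 3.32-fold lower. The threshold was missed without Ccr2 knockout library 1, 4 or 5 or control library 1, 2, 3 or 4, with an adjusted p of at most 0.0918. With the close control pairs summed the adjusted p was 0.202. Without single libraries the log2 fold change stayed between -1.89 and -1.53.

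Sirpb1b, a close copy of Sirpb1a, had 10.8, 28.6, 21.2, 27.4 and 22.9 CPM in Ccr2 knockout libraries against 41.9, 43.6, 40.6, 42.8 and 50.1 CPM in control libraries. The control libraries were close together and the knockout libraries all lay below them. Its log2 fold change of -0.98 ± 0.22 did not pass the threshold (edgeR adjusted p = 0.0599). Without Ccr2 knockout library 1 the adjusted p was 0.0131, and without Ccr2 knockout library 2 it was 0.0470. It was 0.0406 with no composition factor and 0.0465 when genes needed 1 CPM or more in 5 libraries. With the DESeq2 test the adjusted p was 0.00127, and with the voom test it was 0.0132. The remaining settings kept it above the threshold. Leaving out any other single library gave an adjusted p from 0.0777 to 0.130. With the close control pairs summed it was 0.240, and with Ccr2 knockout libraries 4 and 5 summed as well it was 0.370.

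Sirpb1c had the highest mean CPM of the Sirpb1 genes in both groups, before any scaling by length. It had 36.8, 82.3, 55.0, 101 and 56.1 CPM in Ccr2 knockout libraries against 119, 129, 110, 119 and 177 CPM in control libraries. The groups were separate, but Ccr2 knockout library 4 came close to the lowest control library. The log2 fold change was -0.98 ± 0.25 and did not pass the threshold (edgeR adjusted p = 0.0932). It passed with the DESeq2 test (adjusted p = 0.00642) and with the voom test (adjusted p = 0.0330), and in no other alternative.

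Gm5150, the next gene along, was not among the 10 and was listed as a SIRP relative. It had 25.0, 32.4, 27.6, 45.4 and 26.2 CPM in Ccr2 knockout libraries against 62.1, 57.3, 44.3, 51.2 and 59.7 CPM in control libraries, so the groups met at Ccr2 knockout library 4 and control library 3. It fell by 0.81 ± 0.17 on the log2 scale (edgeR adjusted p = 0.0448). This call was lost without any of 9 of the 10 libraries, the exception being Ccr2 knockout library 4, with adjusted p up to 0.115. The nearest coding genes on either side of the run, chosen after their values were seen, were Car2 and Ythdf3, which do not encode SIRPs. Car2, a carbonic anhydrase gene, was near the limit of detection in both groups, at 0.107 CPM in Ccr2 knockout and 0.443 CPM in control. Ythdf3, which encodes a reader of methylated RNA, averaged 51.9 CPM in Ccr2 knockout and 61.5 CPM in control (log2 fold change -0.24, edgeR adjusted p = 0.492).

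Summed over Gm9733, Sirpb1a, Sirpb1b, Sirpb1c and Gm5150, the chromosome 3 run gave 89.9 to 212 CPM in Ccr2 knockout libraries and 277 to 370 CPM in control libraries. The means were 149 ± 49.3 CPM in Ccr2 knockout and 329 ± 34.9 CPM in control. Set against Sirpa with both divided by exon length, the run gave 21.2 ± 4.77 counts per 100 Sirpa counts in Ccr2 knockout libraries and 55.4 ± 10.7 in control libraries. The ranges of this ratio, 15.9 to 28.3 in Ccr2 knockout and 45.0 to 68.0 in control, did not overlap. By gene, Sirpb1a gave 18.7 ± 4.13% of the run's counts in Ccr2 knockout and 28.4 ± 8.95% in control libraries, and Gm9733 gave 0.540 ± 0.234% in Ccr2 knockout and 1.74 ± 0.333% in control. Gm5150 gave 21.8 ± 3.96% in Ccr2 knockout and 16.7 ± 0.582% in control libraries. The groups overlapped for the share of Sirpb1a. They did not overlap for that of Gm9733, lower in every Ccr2 knockout library, or for that of Gm5150, higher in every Ccr2 knockout library. Sirpb1c gave the greatest part in both groups on average, at 44.0 ± 3.07% in Ccr2 knockout and 39.8 ± 7.28% in control.

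**Figure D2:**
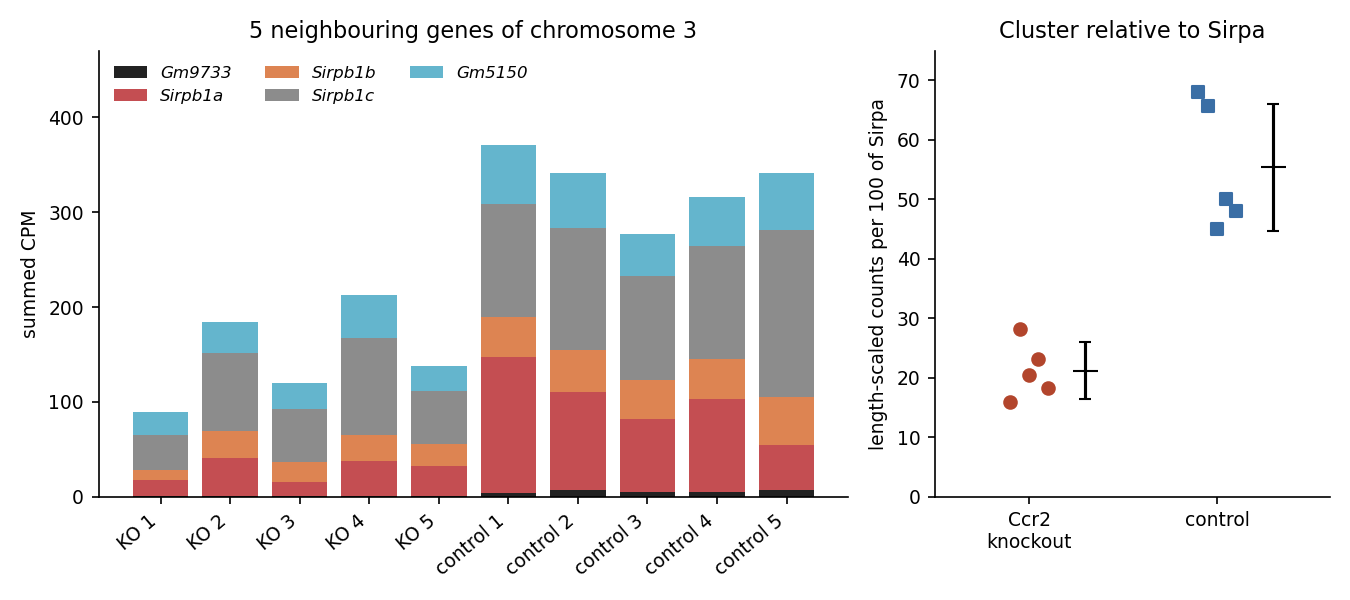
Left, summed CPM of the 5 neighbouring genes in each library, stacked by gene; right, their length-scaled counts per 100 of Sirpa in each library, with mean ± SD (n = 5 per group). Sums run from 89.9 to 212 CPM in Ccr2 knockout and from 277 to 370 CPM in control, and the ratio to Sirpa does not overlap between groups.

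Sirpa, the inhibitory SIRP, had 1317, 1347, 1272, 1951 and 1609 CPM in Ccr2 knockout libraries against 1211, 1153, 1331, 1378 and 1493 CPM in control libraries. The groups overlapped, with the highest values in Ccr2 knockout libraries 4 and 5. The means were 1499 ± 284 CPM in Ccr2 knockout and 1313 ± 135 CPM in control, and the log2 fold change of 0.19 ± 0.13 did not pass the threshold (edgeR adjusted p = 0.515). Cd47, which encodes the ligand of SIRP alpha and is expressed by most cell types, had 162, 211, 174, 192 and 193 CPM in Ccr2 knockout libraries and 225, 222, 248, 241 and 218 CPM in control libraries. The groups did not overlap, but the gap was small. The log2 fold change was -0.31 ± 0.09 (edgeR adjusted p = 0.126).

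Pirb had 333, 303, 329, 360 and 251 CPM in Ccr2 knockout libraries and 529, 482, 301, 350 and 405 CPM in control libraries. The groups overlapped, since control libraries 3 and 4 lay within the knockout range (log2 fold change -0.39 ± 0.16, edgeR adjusted p = 0.276). Pilra had 138, 142, 166, 183 and 131 CPM in Ccr2 knockout against 196, 207, 121, 131 and 170 CPM in control, again with overlap (log2 fold change -0.12 ± 0.16, edgeR adjusted p = 0.774). Its activating partner Pilrb1 had 6.98, 6.33, 7.91, 17.3 and 10.6 CPM in Ccr2 knockout and 15.4, 18.4, 12.7, 12.7 and 13.2 CPM in control. The 4 knockout libraries other than library 4 lay below all control libraries, and the log2 fold change was -0.56 ± 0.26 (edgeR adjusted p = 0.345).

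Lilrb4a was the most uneven of the 10 within a group. It had 224, 98.7, 112, 46.7 and 58.7 CPM in Ccr2 knockout libraries against 151, 119, 76.1, 93.5 and 99.4 CPM in control libraries. Knockout libraries gave both the highest and the lowest value, and the means were 108 ± 70.2 CPM in Ccr2 knockout and 108 ± 28.7 CPM in control (log2 fold change 0.00 ± 0.38, edgeR adjusted p = 0.997). Without Ccr2 knockout library 1 the log2 fold change was -0.44. Lilr4b, a related receptor gene added after its values were seen, was likewise highest in Ccr2 knockout library 1, at 638 CPM, with means of 328 ± 193 CPM in Ccr2 knockout and 293 ± 68.2 CPM in control.

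**Figure D3:**
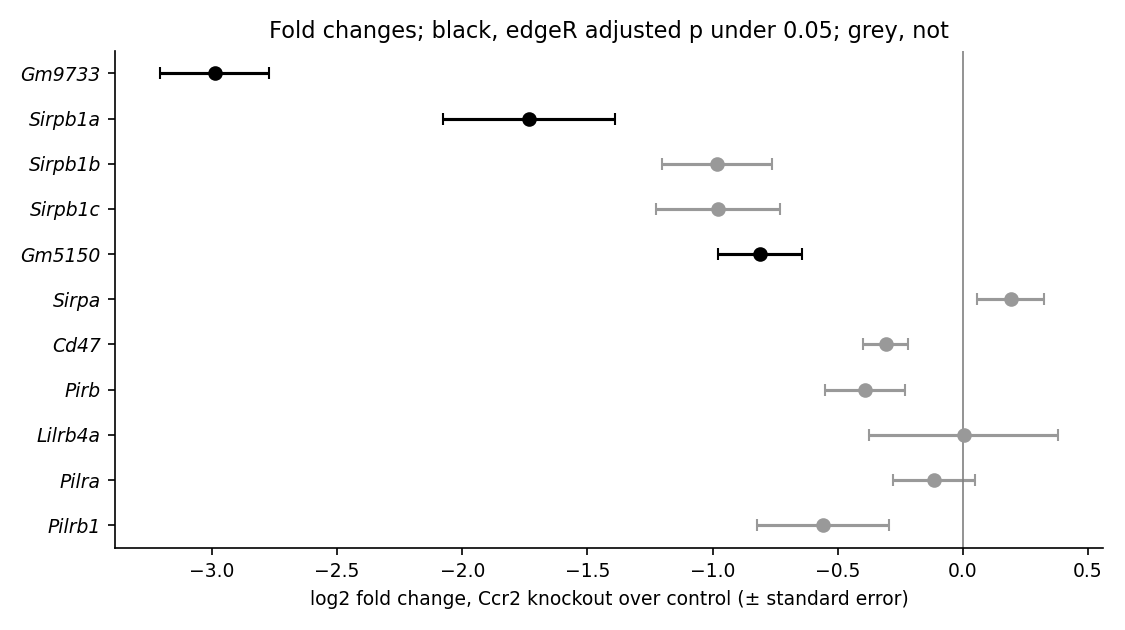
Log2 fold change of Ccr2 knockout over control for each gene, with its standard error; black marks genes with an edgeR adjusted p under 0.05. Gm9733 lies furthest left at -2.99, followed by Sirpb1a at -1.73, while Lilrb4a lies at 0.00 and Sirpa at 0.19.

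Per kilobase of annotated exon, Sirpa had the highest level of the 10 in both groups, at 305 CPM per kb in Ccr2 knockout and 267 CPM per kb in control. Pirb followed at 70.5 CPM per kb in Ccr2 knockout and 92.5 CPM per kb in control, and Pilra at 49.2 and Cd47 at 29.7 CPM per kb in Ccr2 knockout, against 53.4 and 36.8 CPM per kb in control. In Ccr2 knockout libraries Lilrb4a, at 20.7 CPM per kb, stood above all 3 Sirpb1 genes, which had 18.0 (Sirpb1c), 12.3 (Sirpb1a) and 7.71 CPM per kb (Sirpb1b). In control libraries Sirpb1a at 41.0 and Sirpb1c at 35.5 CPM per kb stood on either side of Cd47 and above Lilrb4a at 20.6, with Sirpb1b at 15.2 CPM per kb below it. Gm9733 had 1.16 CPM per kb, the lowest of the 10 in Ccr2 knockout, and 9.23 CPM per kb in control, where Pilrb1 was lowest at 7.40 CPM per kb. Exon lengths came from GENCODE M21, whose Gm9733 model has 618 exon bases, so levels per length depend on that model.

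How far reads could be placed differed between these genes. The files list 0 multimapping reads in every library, so a read that fits more than 1 gene equally well may not have been counted. Of the 50-base stretches in annotated transcripts, 58.0% of those of Sirpb1b, 51.9% of Sirpb1c and 40.4% of Sirpb1a were also found in another gene, mostly in each other. At 100 bases the shares were 39.3% for Sirpb1b, 32.1% for Sirpb1c and 23.0% for Sirpb1a, and no source used here states the read length. Their levels, and the split of reads between them, are uncertain for this reason. Gm9733, Gm5150 and Sirpa shared no 50-base stretch with another gene of the annotation. Lilrb4a shared 47.2% of 50-base stretches, Pirb 34.0%, Pilrb1 32.2%, Pilra 20.8% and Cd47 0.722%. The closest genes were Lilr4b and Gm49339 for Lilrb4a, Pira2 and Lilra6 among those for Pirb, and Pilrb2 for Pilrb1.

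**Figure D4:**
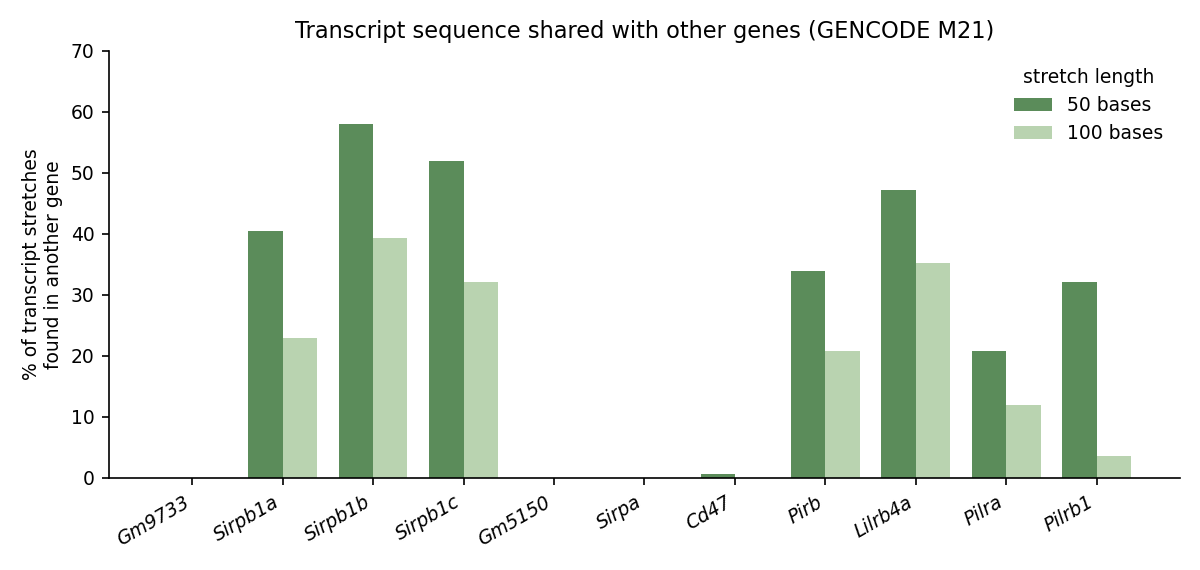
Share of the 50-base and 100-base stretches of each gene's annotated transcripts (GENCODE M21) that also occur in transcripts of another gene, in percent. Gm9733, Gm5150 and Sirpa share none, while Sirpb1b shares 58.0% at 50 bases.

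Of 23 signalling chains and effectors tested, 1 fell and none rose, 19 had a log2 fold change below 0, and the median was -0.08. The 1 gene was Fgr, a Src-family kinase of myeloid cells, at 70.2, 55.8, 47.7, 101 and 48.1 CPM in Ccr2 knockout against 189, 179, 110, 102 and 149 CPM in control libraries. Its groups all but touched, between Ccr2 knockout library 4 and control library 4 (log2 fold change -1.18 ± 0.25, edgeR adjusted p = 0.0451). The call was lost on leaving out any of 9 of the 10 libraries, the exception being Ccr2 knockout library 4, with adjusted p up to 0.118. Tyrobp, the adaptor of the SIRP beta proteins and PILR beta, averaged 967.5 ± 137 CPM in Ccr2 knockout and 995 ± 82.9 CPM in control (log2 fold change -0.04, edgeR adjusted p = 0.885). Fcer1g averaged 908 ± 124 CPM in Ccr2 knockout and 977 ± 109 CPM in control, and Ptpn6, the phosphatase SHP-1, averaged 630.1 ± 143 CPM in Ccr2 knockout and 704 ± 94.7 CPM in control. Ptpn11, the phosphatase SHP-2, averaged 95.6 ± 3.33 CPM in Ccr2 knockout and 95.8 ± 4.09 CPM in control. The edgeR adjusted p was 0.702 for Fcer1g, 0.672 for Ptpn6 and 0.988 for Ptpn11.

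Of 18 tested ligands and ligand modifiers other than Cd47, none passed the threshold, with 9 below 0, 9 above 0 and a median log2 fold change of -0.02. The MHC class I genes, whose products PIR-B binds, overlapped between groups. H2-D1 averaged 3851 ± 1530 CPM in Ccr2 knockout and 4039 ± 393 CPM in control, and H2-K1 averaged 2708 ± 1291 CPM in Ccr2 knockout and 3049 ± 566 CPM in control. B2m, the light chain of MHC class I, averaged 2507 ± 973 CPM in Ccr2 knockout and 2959 ± 433 CPM in control. Apoe, a lipid carrier known as a ligand of the human LILRB4 receptor, averaged 29448 ± 5081 CPM in Ccr2 knockout and 37399 ± 5403 CPM in control (edgeR adjusted p = 0.279). The groups were separate for 1 ligand gene, Thbs1, which encodes thrombospondin, a secreted protein that binds CD47, and which is named after its values were seen. It had 198, 301, 466, 63.1 and 64.6 CPM in Ccr2 knockout libraries and 647, 932, 710, 801 and 2079 CPM in control libraries. With this spread its log2 fold change of -2.24 ± 0.58 did not pass the threshold (edgeR adjusted p = 0.0947). Separate groups, in either direction, were seen in 4.70% of all genes tested.

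Of 33 other paired and inhibitory myeloid receptors tested, none passed the threshold in either direction. Of these, 17 had a log2 fold change below 0 and 16 above 0, with a median of -0.05 and a range from -1.57 to 0.73. In 3 of them every Ccr2 knockout library lay below every control library, namely Pira2, Lilra6 and Cd300c2, which are named after their values were seen. All Ccr2 knockout libraries were lower in 2.02% of all genes tested. Pira2, an activating relative of Pirb, averaged 5.25 ± 1.99 CPM in Ccr2 knockout and 9.54 ± 2.78 CPM in control (log2 fold change -0.86, edgeR adjusted p = 0.188). Lilra6 averaged 1.57 ± 0.578 CPM in Ccr2 knockout and 3.45 ± 1.22 CPM in control (log2 fold change -1.13, edgeR adjusted p = 0.116). Pilrb2, the closest copy of Pilrb1, averaged 15.7 ± 6.37 CPM in Ccr2 knockout and 23.1 ± 4.55 CPM in control (log2 fold change -0.55, edgeR adjusted p = 0.319). The lowest log2 fold change in the list was that of Cd300e, an activating receptor of monocytes, at -1.57 (edgeR adjusted p = 0.133). It averaged 30.3 ± 9.94 CPM in Ccr2 knockout and 89.8 ± 49.4 CPM in control, where library 5 had 18.2 CPM.

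**Figure D5:**
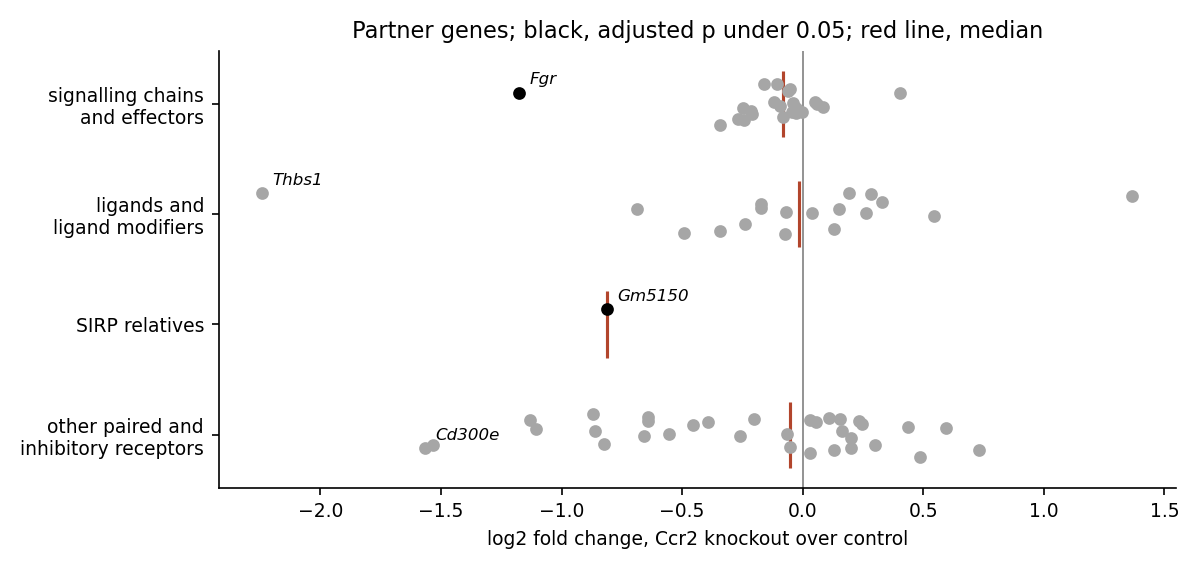
Log2 fold change of Ccr2 knockout over control for the tested genes of 4 partner lists, with the list median as a red line; black marks genes with an edgeR adjusted p under 0.05. Fgr and Gm5150 are the only black points, and the medians of the signalling, ligand and other receptor lists lie at -0.08, -0.02 and -0.05.

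Genes were also ranked by how closely their levels followed Gm9733 over the 10 libraries, as the root mean square difference of log2 CPM after centring, among 10892 genes. The 5 nearest were Napsa, Mcemp1, Ly6i, Rhou and Gpr141, with differences of 0.31, 0.42, 0.43, 0.54 and 0.55 on the log2 scale, against a spread of 1.47 for Gm9733 itself. Napsa, an aspartic protease gene, ranged from 11.3 to 19.2 CPM in Ccr2 knockout and from 59.7 to 103 CPM in control libraries. Mcemp1, one of the classical monocyte markers used here, ranged from 1.12 to 3.29 CPM in Ccr2 knockout and from 6.03 to 22.4 CPM in control libraries. Ly6i ranged from 0.439 to 1.30 CPM in Ccr2 knockout and from 3.96 to 7.97 CPM in control libraries, Rhou from 1.37 to 4.16 CPM in Ccr2 knockout and from 5.23 to 11.9 CPM in control, and Gpr141 from 0.791 to 2.94 CPM in Ccr2 knockout and from 8.04 to 20.7 CPM in control. All 5 were lower in every Ccr2 knockout library, which the measure favours, since Gm9733 itself is split by group. For Sirpa the 5 nearest genes were Gak, Hsdl1, Tfe3, Npepl1 and Nfrkb, with differences of 0.05, 0.06, 0.06, 0.07 and 0.07. Sirpa itself had a spread of only 0.21 on the log2 scale.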

How the data were processed

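The authors deposited whole-number read counts per gene for each library, as STAR writes them, on GRCm39 per the submitters' processing notes; no source used here gives the STAR version, annotation or read length. Polyadenylated RNA was made into directional libraries, per the labels' protocols, and 96.2% to 96.5% of strand-assigned counts were in the reverse-strand column, which was used. Rows for unmapped reads (6.87% to 8.07% of reads), reads in no gene (3.63% to 5.68%) and ambiguous reads (1.83% to 2.10%) stayed out of library sizes and tests. A combined count table was not used, because its columns could not be matched to samples, and nor was a table of genotypes. Samples were grouped by the genotype label; titles call the control libraries WT.

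The test was edgeR's quasi-likelihood F-test (version 4.0.16, R 4.3.3), applied after filterByExpr (minimum count 10) and TMM scaling, with Benjamini-Hochberg adjustment over 14374 genes and a threshold of 0.05. The SE is the size of the log2 fold change divided by the square root of F. The fit was tested on simulated data. The alternatives, 21 in all, included DESeq2 1.42.0 and voom in limma 3.58.1. Transcript stretches, exon lengths and gene order came from GENCODE M21 on GRCm38, and RefSeq promoters were aligned with MAFFT 7.526 and Biopython 1.88. Figures were drawn with matplotlib 3.10.9 in Python 3.11.15.

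The genes, the lists around them and the alternatives were chosen with earlier results of these data known. Genes named were the 10, Ccr2, genes past the threshold in each partner list (up to 6), their most abundant signalling partners and ligands, and the 5 genes nearest to Gm9733 and to Sirpa with a mean of at least 2 CPM; others are said to be named after their values were seen. The closest libraries, control 3 and 4 and control 1 and 2, differed by more than counting noise and were kept as separate samples. This does not show that they came from separate animals, since repeat preparations can also differ by more than counting noise, so fits with these pairs summed were run too.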

Additional observations from a re-analysis of the deposited data

Results flagged for a closer look

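In 36 groups of 5 libraries (18 genes in 2 groups each), 3 held a library whose gap to its nearest neighbour exceeded 0.71 of the group's range, the critical value for 5 samples. Chance gives such a gap in about 1 in 20 groups. All 3 were control library 5. Sirpb1c had 177 CPM there against 128.8 CPM in the next control library, a gap of 0.717 of the range. Tyrobp had 1136 CPM against 982.75 CPM in the next control library (0.718 of the range), and Thbs1 had 2079 CPM against 931.8 CPM (0.801 of the range).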

How the results depend on the processing

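The log2 fold change of Gm9733 stayed between -3.10 and -2.87 and past the threshold in all 21 alternatives, with an adjusted p of at most 0.0158. The counts moved with the test and the samples. Scaling with no composition factor and a filter of at least 1 CPM each called 3 of the 10 genes, adding Sirpb1b (adjusted p = 0.0406 and 0.0465). DESeq2 called 820 genes, 5 of the 10 genes described here and 8 partner genes. The voom test called 446, 4 and 4, against 203, 2 and 2 with edgeR. DESeq2 added Sirpb1b, Sirpb1c and Cd47 (adjusted p = 0.00127, 0.00642 and 0.0281), and voom added Sirpb1b and Sirpb1c (adjusted p = 0.0132 and 0.0330). Without a filter 1 partner gene was called. With the replicate number as a block, 55, 1 and 0 were called, and the adjusted p of Sirpb1a was 0.123. Same-numbered libraries had correlated deviations for some numbers and not others (0.344, 0.0802, -0.529, 0.180 and -0.224 for numbers 1 to 5), and number 1 alone was the best match in both groups, so the numbers are not taken to pair samples. Summing the close control pairs left 29, 1 and 0, summing Ccr2 knockout libraries 4 and 5 as well left 8, 1 and 0, and leaving out those 2 knockout libraries left 50, 1 and 1. Sirpb1a missed the threshold in these 3 fits (adjusted p = 0.202, 0.320 and 0.124), which have fewer samples. Leaving out 1 library gave 62 to 267 genes, 1 to 3 of the 10, and 0 to 2 partner genes. Lilrb4a, at 0.00, changed sign with voom (-0.43), with the block (-0.18) and on leaving out single libraries (-0.44 to 0.22); the cause was not tested. Gm9733 rests on 24 to 37 reads in Ccr2 knockout libraries.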
